A study of Rattus norvegicus with 6 samples.

Results

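Genes that take up, store, export and sense iron were followed in the livers of rats with and without carbon tetrachloride fibrosis. The 10 genes were the hepcidin gene Hamp, its regulators Bmp6, Hfe, Tfr2 and Tmprss6, the uptake genes Tfrc and Slc39a14, the ferritin genes Fth1 and Ftl1, and the exporter gene Slc40a1. They were chosen by name for their place in iron metabolism, not by a threshold on any measured value, but with earlier results of these data known. Of these 10 genes, 9 were matched by symbol to a row among the 19616 genes listed, and all 9 were among the 14864 genes tested. Slc40a1 was not analysed here under its own symbol.

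The liver both stores iron and sets its supply for the whole body. Hepatocytes secrete hepcidin, a small peptide that binds ferroportin, the iron exporter encoded by Slc40a1, and causes it to be internalised and degraded, so that less iron leaves gut cells and macrophages for the plasma. Transcription of Hamp has a pair of well known inputs. BMP ligands such as BMP6, made largely by sinusoidal endothelial cells, act through hepatocyte BMP receptors, the coreceptor hemojuvelin and SMAD proteins, while IL-6 acts through its receptor, JAK kinases and STAT3. Iron regulatory proteins adjust Tfrc and the ferritins mainly after transcription, through stability and translation of the mRNA, so mRNA levels describe only a part of their control.

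Male SD rats were used, and each library came from the liver of a separate animal, so the spread between values is a spread between rats. The FL group (rats FL2, FL5 and FL12) had received, over 5 weeks, 2 intraperitoneal injections a week of CCl4 mixed with an equal volume of olive oil (2 mL/kg). CCl4 is a solvent whose metabolism injures hepatocytes around the central veins, and repeated doses lead to fibrosis. The CL group (rats CL5, CL6 and CL7) had been given the same volume of olive oil, and the comparison of FL with CL asks what differs in the fibrotic liver.

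Levels are given as FPKM, the fragments of a gene scaled to the length of its transcript and to all mapped fragments of the library, which allows levels of different genes to be set side by side. Fold changes are FL minus CL on the scale of log2(FPKM + 0.1), which understates the change of low genes, and a gene is said to have risen or fallen only where limma gave an adjusted p under 0.05. FPKM summed to 309425 in CL5, 340467 in CL6 and 315259 in CL7, and to 309226 in FL2, 272350 in FL5 and 272110 in FL12. The median log2 fold change of all genes tested was 0.29. It was 0.08 after median scaling and -0.04 after quantile normalization, so a gene with a log2 fold change near 0.29 moved with the bulk of the genes.

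The rat FL2 stood apart from the other rats in Hp, Hpx, Socs3 and Stat3, which are singled out here after their values were seen. Of 90 iron genes with a CL mean above 0, members included, FL2 had the highest value in 23, as did FL5. FL2 also differed in markers of other kinds. Fgb, a fibrinogen gene of hepatocytes, was at 3803 FPKM in FL2 and between 1287 and 1786 FPKM in the other 5 rats, and Col1a1, a collagen gene, was at 17 FPKM in FL2 against 101 and 73.7 FPKM in FL5 and FL12, and between 2.12 and 3.77 FPKM in the CL rats. Haptoglobin (Hp), which binds free hemoglobin, was at 2572 (CL5), 2317 (CL6) and 2458 FPKM (CL7), and at 7491 (FL2), 2498 (FL5) and 3546 FPKM (FL12). Hemopexin (Hpx), which binds free heme, was at 2077, 2044 and 2259 FPKM in the CL rats and at 7001 (FL2), 1899 (FL5) and 2759 FPKM (FL12). Both genes were highest in FL2, and in FL5 they lay within or below the range of the CL rats. Socs3, a direct target and feedback inhibitor of STAT3, was at 1.19, 3.42 and 3.21 FPKM in the CL rats and at 15.1 (FL2), 2.55 (FL5) and 2.23 FPKM (FL12). Stat3 itself was at 23.6, 20.2 and 22.2 FPKM in the CL rats and at 44.9, 20.8 and 23.8 FPKM in the FL rats in the same order. Without FL2 the log2 fold change went from 0.73 to 0.28 for Hp, from 0.64 to 0.11 for Hpx, from 0.88 to 0.01 for Socs3 and from 0.36 to 0.02 for Stat3, and none of the 4 passed with or without that rat.

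Markers of hepatocytes were abundant, as the labelled tissue requires. The 10 hepatocyte markers summed to between 45940 and 48837 FPKM in the CL rats and between 37759 and 38760 FPKM in the FL rats, with Alb the most abundant. Of these 10 markers 0 passed the test in either direction on all 6 rats, and Apoa1 passed as higher in 4 of 14 alternatives. For Alb the coefficient of variation was only 3.13% in the CL group and 2.31% in the FL group. Its SE by limma with the trended prior was 0.98 on the log2 scale, far wider than that scatter. The missed call of Alb therefore shows neither wide variation between rats nor equal levels. The groups did not overlap for 6 of the 10 (60.0%, against 40.5% of all genes tested), with FL lower for Alb, Ttr, Apoa2, Apob and Hnf4a and higher for Apoa1. With quantile normalization the log2 fold change of Alb turned from -0.38 to 0.49, while the other 5 kept their sign under both scalings. Markers of macrophages rose in 6 of 8 genes (75.0%, against 16.9% of all genes tested), with sums of 43.7, 49.0 and 43.2 FPKM in the CL rats and 165 (FL2), 267 (FL5) and 190.0 FPKM (FL12), and Gpnmb the most abundant. Markers of stellate cells or myofibroblasts also rose in 6 of 8 genes, with sums of 77, 80.5 and 74.5 FPKM in the CL rats and 197, 512 and 477 FPKM in the FL rats, and Col3a1 the most abundant. Reln, 1 of those 6, did not pass with either scaling. Of the 5 Kupffer cell markers 1 rose, Marco, and the list summed to 110, 100 and 109 FPKM in the CL rats and 239, 205 and 105 FPKM in the FL rats, with Clec4f the most abundant. Of 6 sinusoidal endothelial markers 1 rose, Stab2, with sums between 84.0 and 97.2 FPKM in the CL rats and between 82.5 and 110.0 FPKM in the FL rats, Fcgr2b being the most abundant. In bulk liver, fewer cells of a type and less RNA per cell cannot be told apart, and the part of any cell type in the iron gene results was not tested.

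Of 6 erythroid markers tested 0 passed, and their sum, with Hbb the most abundant, was 89.0, 160.0 and 114 FPKM in the CL rats and 128, 49.7 and 51.4 FPKM in the FL rats. Without FL2, Hbb (-1.21, adjusted p = 0.00989, in a range of 0.00989 to 0.21 over 14 alternatives) and Hba1 (-1.44, adjusted p = 0.0353, in a range of 0.0353 to 0.716) were called lower and Epb42 (1.61, adjusted p = 0.0306, in a range of 0.0306 to 0.566) higher. Of 3 neutrophil markers tested, 2 were called higher as deposited (66.7%, against 16.9%), S100a8 and S100a9, but each passed only 3 of its alternatives and neither passed with median scaling (adjusted p = 0.0683 and 0.0823) or quantile normalization (adjusted p = 0.133 and 0.2), in ranges of 0.0255 to 0.133 and 0.0396 to 0.2. The neutrophil list summed to 0.32, 0.62 and 0.89 FPKM in the CL rats and 3.47, 1.52 and 3.29 FPKM in the FL rats, with S100a8 the most abundant. Of 4 genes tested in the lymphocyte list 1 rose, Ptprc, which all leukocytes express, macrophages included, while Cd3e, Cd3d and Cd79a did not pass. The list summed to at most 4.49 FPKM in the CL rats and at least 9.82 FPKM in the FL rats, most of it Ptprc. Of 4 cholangiocyte markers 0 passed, with sums between 5.26 and 7.68 FPKM in the CL rats and between 5.18 and 10.3 FPKM in the FL rats, Epcam leading. In none of the 9 lists was a gene with a row at 0 in all 6 rats.

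None of the 9 measured members rose or fell in the fibrotic livers on the values as deposited, and with median scaling 1, Tmprss6, was called lower. With limma, 0 of 9 were higher, against 16.9% of all genes tested, and 0 of 9 were lower, against 1.94%. At an unadjusted p under 0.05 the count was 1, Tmprss6. The share of all genes at that unadjusted limit is not given, here or for the lists below. The groups did not overlap for 3 of the 9 genes, Slc39a14 and Fth1 with all FL rats higher and Tmprss6 with all FL rats lower, against 40.5% of all genes tested. The median log2 fold change of the members was 0.21, or -0.08 relative to all genes, and it was -0.01 after median scaling and -0.08 after quantile normalization. A difference that misses the threshold in 3 rats against 3 does not show that the levels were equal, and the interval of each difference is given with it.

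**Figure D1:**
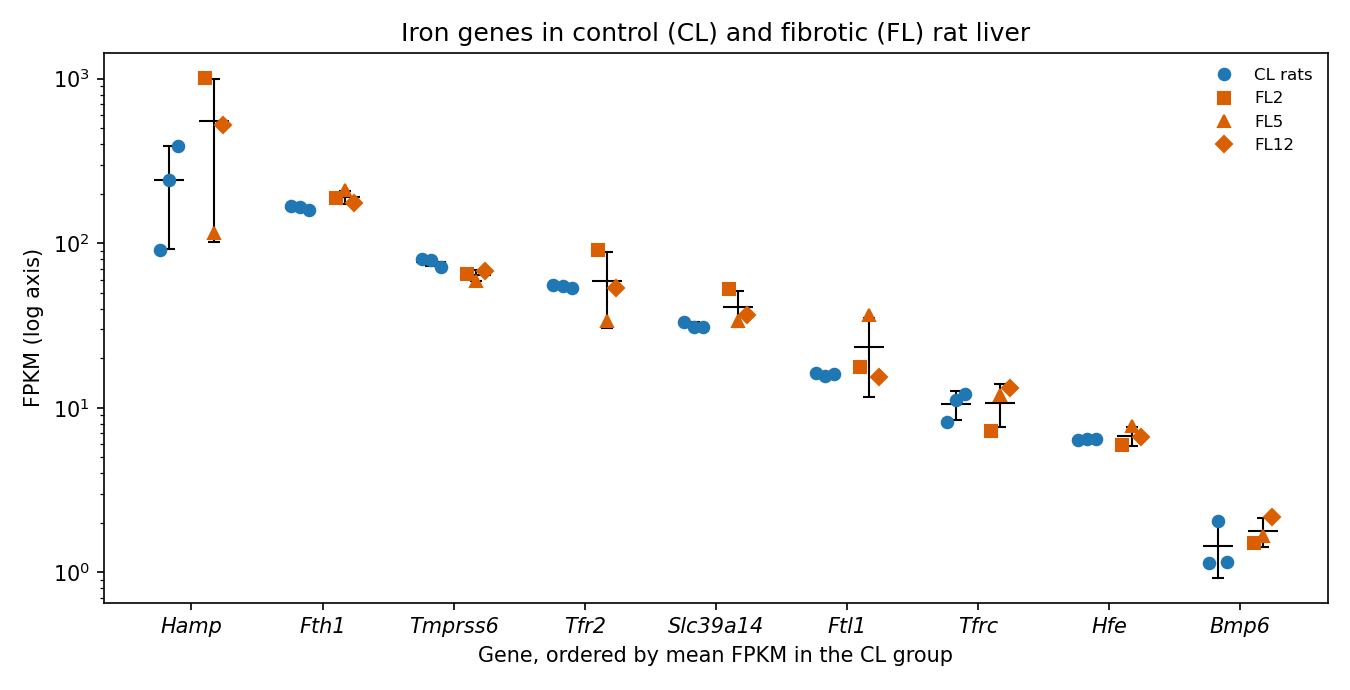
FPKM of the 9 measured iron genes on a log axis, with 3 CL rats (blue circles) and the 3 FL rats (orange squares for FL2, triangles for FL5, diamonds for FL12). Horizontal bars are group means and error bars are SDs over 3 rats, shortened at the lower end where needed to stay on the log axis. Hamp has the widest spread in both groups, and only Slc39a14, Fth1 and Tmprss6 have groups without overlap.

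Hamp was the most variable member in both groups. Hamp (ENSRNOG00000021029, chromosome 1) was at 91.2 (CL5), 243 (CL6) and 390.2 FPKM (CL7), and at 1009 (FL2), 115 (FL5) and 525 FPKM (FL12). FL2 and FL12 lay above every CL rat, while FL5 lay inside the CL range, between CL5 and CL6, so the groups overlapped. Means with SD were 242 ± 149 FPKM for CL and 550 ± 448 FPKM for FL (n = 3). The highest value was 4.28 times the lowest among the CL rats and 8.81 times the lowest among the FL rats. The log2 fold change was 0.94 (SE 0.80, 95% interval -0.92 to 2.79), with an adjusted p of 0.431 by limma. Single rats decided its size. It was 0.26 without FL2, 1.83 without FL5, 0.35 without CL5 and 1.40 without CL7, with adjusted p between 0.109 and 0.828 over all 14 alternatives.

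The regulators of hepcidin differed in how tightly they were held. Bmp6 (ENSRNOG00000013717, chromosome 17), the BMP ligand made in response to iron, was at 1.14, 2.06 and 1.16 FPKM in the CL rats and at 1.51 (FL2), 1.65 (FL5) and 2.18 FPKM (FL12). CL6 lay within the FL range and CL5 and CL7 below it. Its mean with SD was 1.45 ± 0.525 FPKM for CL and 1.78 ± 0.353 FPKM for FL (n = 3), and its log2 fold change was 0.31 (95% interval -0.31 to 0.92, adjusted p = 0.433 by limma). The sign turned with quantile normalization (-0.16), and the value moved to 0.57 without CL6, to 0.17 without CL5, to 0.18 without CL7 and to 0.16 without FL12.

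Hfe encodes an HLA-like protein that binds transferrin receptors and takes part in iron sensing on hepatocytes. Hfe (ENSRNOG00000016967, chromosome 17) was at 6.40, 6.45 and 6.47 FPKM in the CL rats and at 5.94, 7.69 and 6.61 FPKM in the FL rats. The CL rats were almost equal, and the FL rats lay on both sides of them. Its log2 fold change was 0.06 (95% interval -0.24 to 0.36, adjusted p = 0.773 by limma), and it was -0.16 with median scaling, -0.22 with quantile normalization, -0.04 without FL5 and 0.14 without FL2.

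Tfr2, a second transferrin receptor of hepatocytes that signals iron saturation to the hepcidin pathway, showed a like contrast between a tight control group and scattered FL rats. Tfr2 (ENSRNOG00000001407, chromosome 12) was at 56.0, 54.6 and 53.1 FPKM in the CL rats and at 90.4 (FL2), 33.6 (FL5) and 53.6 FPKM (FL12). FL2 lay above all CL rats, FL5 below all of them and FL12 among them, in the order that these rats also had for Hamp. The coefficient of variation was 2.66% in the CL group and 48.7% in the FL group, a difference in spread that was not tested. On the log2 scale the fold change was 0.00 (95% interval -0.71 to 0.72, adjusted p = 0.998 by limma). It was -0.36 without FL2, 0.35 without FL5, -0.22 with median scaling and -0.08 with quantile normalization.

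Tmprss6 encodes matriptase-2, a membrane protease of hepatocytes that cleaves hemojuvelin and so restrains hepcidin. Tmprss6 (ENSRNOG00000000184, chromosome 7) was at 80.7, 78.6 and 71.7 FPKM in the CL rats and at 65.1, 58.6 and 67.5 FPKM in the FL rats. Each FL value was lower than the lowest CL value. The same held for 5 of the 10 hepatocyte markers given above, whose part in this was not tested. Means with SD were 77 ± 4.72 FPKM for CL and 63.7 ± 4.61 FPKM for FL (n = 3). The log2 fold change was -0.27 (SE 0.12, 95% interval -0.55 to -0.00) with an adjusted p of 0.141 by limma, and -0.56 relative to the median of all genes. With median scaling it was -0.50 and passed (adjusted p = 0.032), while with quantile normalization it was -0.30 and did not (adjusted p = 0.13), in a range of 0.032 to 0.324 over 14 alternatives.

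The uptake genes were Tfrc, the classical transferrin receptor through which cells take up transferrin-bound iron, and Slc39a14, also called ZIP14, the main importer of iron not bound to transferrin in hepatocytes. Tfrc (ENSRNOG00000001766, chromosome 11) was at 8.21, 11.2 and 12.2 FPKM in the CL rats and at 7.19, 11.97 and 13.1 FPKM in the FL rats. FL2 was below and FL12 above all CL rats. Its log2 fold change was 0.00 (95% interval -0.56 to 0.57, adjusted p = 0.992 by limma), and it was -0.22 with median scaling, -0.21 with quantile normalization, -0.16 without CL5, 0.12 without CL7, 0.27 without FL2, -0.10 without FL5 and -0.16 without FL12.

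Slc39a14 (ENSRNOG00000009832, chromosome 15) was at 33.4, 31.1 and 30.8 FPKM in the CL rats and at 52.3 (FL2), 33.5 (FL5) and 36.6 FPKM (FL12). All FL rats lay above all CL rats, FL5 by a narrow margin and FL2 by the widest. Means with SD were 31.7 ± 1.43 FPKM for CL and 40.8 ± 10.1 FPKM for FL (n = 3). On the log2 scale the fold change was 0.34 (SE 0.17, 95% interval -0.06 to 0.73, adjusted p = 0.198 by limma), or 0.05 relative to the median of all genes. Without FL2 it was 0.14, and with median scaling 0.11.

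The ratio of Tfr2 to Tfrc was taken within each rat, since one receptor is mainly a sensor and the other mainly a carrier. It was 6.82, 4.87 and 4.37 in CL5, CL6 and CL7, and 12.6, 2.80 and 4.09 in FL2, FL5 and FL12. FL2 had the highest ratio of the 6 rats, and FL5 and FL12 had the lowest. In FL2 Tfr2 was highest and Tfrc lowest among all rats, so both genes moved the ratio the same way there.

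Storage was described by the ferritin heavy chain, which carries the ferroxidase centre of the ferritin shell, and the light chain, which aids mineral formation inside it. Fth1 (ENSRNOG00000022619, chromosome 1) was at 168, 166 and 159 FPKM in the CL rats and at 187, 210.2 and 176 FPKM in the FL rats. All FL rats lay above all CL rats. Means with SD were 164 ± 4.45 FPKM for CL and 191 ± 17.6 FPKM for FL (n = 3), and the log2 fold change was 0.21 (SE 0.14, 95% interval -0.10 to 0.53, adjusted p = 0.295 by limma). It was -0.01 with median scaling and 0.30 with quantile normalization, so the direction depended on the scaling.

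Ftl1 (ENSRNOG00000020843, chromosome 1) was at 16.3, 15.6 and 16.1 FPKM in the CL rats and at 17.6 (FL2), 36.6 (FL5) and 15.4 FPKM (FL12). FL5 alone was far from the rest, and FL12 was below all CL rats. The log2 fold change was 0.43 (95% interval -0.24 to 1.09, adjusted p = 0.326 by limma). It was 0.04 without FL5, 0.66 without FL12 and 0.20 with median scaling.

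Most ferritin light chain signal was not listed under Ftl1. The row LOC100360087 (ENSRNOG00000031506, chromosome 5), described as ferritin light chain 1-like, was at 651, 976 and 771 FPKM in the CL rats and at 733 (FL2), 1346 (FL5) and 1299 FPKM (FL12). FL5 and FL12 were above all CL rats, and FL2 was among them. Of the FPKM summed over the 8 rows described as ferritin light chains, this row held between 97.3% and 98.8% in each rat, and Ftl1 between 1.17% and 2.65%. Each of the other 6 rows was at or below 0.19 FPKM in every rat, and LOC680217 was listed at 0 in all. Only uniquely mapped reads entered the values, so near-identical copies can share or lose reads, and the level of Ftl1 on its own is uncertain. The log2 fold change of LOC100360087 was 0.46 (SE 0.31, 95% interval -0.26 to 1.19, adjusted p = 0.323 by limma). It was 0.75 without FL2 (adjusted p = 0.0535, in a range of 0.0535 to 0.668 over 14 alternatives) and 0.24 with median scaling. The sum of the 8 rows, an alternative chosen after seeing the data, gave 0.46 in the place of Ftl1 (adjusted p = 0.321 by limma, against 0.173 to 0.845 over the other 14 alternatives for Ftl1).

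The summed light chain rows exceeded Fth1 in every rat, as a ratio of FPKM levels. The ratio was 3.98, 5.97 and 4.95 in the CL rats and 4.01, 6.58 and 7.49 in FL2, FL5 and FL12. FL2 lay at the low end of the CL range and the other FL rats above it. The means were 4.97 ± 0.992 in the CL group and 6.03 ± 1.80 in the FL group (SD, n = 3), so the difference was within the spread of the FL rats.

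Iron export was read from a row described as solute carrier family 40 member 1-like, LOC100911874, which was chosen after its values were seen. Its row ENSRNOG00000003872 on chromosome 9 was at 10.1, 9.80 and 10.8 FPKM in the CL rats and at 17.0, 16.8 and 14 FPKM in the FL rats. All FL rats lay above all CL rats. Means with SD were 10.2 ± 0.494 FPKM for CL and 15.9 ± 1.67 FPKM for FL (n = 3), and the log2 fold change was 0.63 (SE 0.12, 95% interval 0.35 to 0.91, adjusted p = 0.0125 by limma), so this row rose by less than 2-fold. It did not pass with median scaling (0.41, adjusted p = 0.092) or quantile normalization (0.43, adjusted p = 0.0844), in a range of 0.0109 to 0.092 over 14 alternatives, 11 of which it passed. The other row of this name, ENSRNOG00000049995, lay at or below 0.16 FPKM in all rats and was not tested. Whether either row stands for the Slc40a1 gene of current rat annotation was not tested.

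The members kept the same order of mean level in both groups, from Hamp through Fth1, Tmprss6, Tfr2, Slc39a14, Ftl1, Tfrc and Hfe to Bmp6. In the CL group 1 of the 8 neighbouring pairs overlapped in their values over the 3 rats, namely Hamp and Fth1. In the FL group 5 of 8 overlapped, namely Hamp with Fth1, Tmprss6 with Tfr2, Tfr2 with Slc39a14, Slc39a14 with Ftl1, and Tfrc with Hfe. Hamp stood above 99.5% of all genes tested in mean level and Bmp6 above 37.4%. The level of the ligand gene in bulk tissue was thus far below that of the hormone gene, on the same FPKM scale.

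Beyond the members, 86 further genes of iron and heme metabolism were listed in 10 groups by function, of which 78 were tested. These lists too were chosen with earlier results of these data known, so their counts are a description. Limma called 17 of the 78 higher (21.8%, against 16.9% of all genes tested) and 2 lower (2.56%, against 1.94%), and 59 passed in neither direction. At an unadjusted p under 0.05 the count over both directions was 30, a description only, since the share of all genes at that limit is not given. With a fold change of at least 2 the counts were 8 higher, against 9.29% of all genes, and 1 lower, against 0.935%. The groups did not overlap for 37 of the 78 (47.4%, against 40.5% of all genes tested). The median log2 fold change of the 78 genes was 0.26, or -0.02 relative to all genes, and 0.04 and 0.03 after median scaling and quantile normalization. The split between higher and lower calls depended on the scaling, with 17 against 2 as deposited, 7 against 5 after median scaling and 5 against 4 after quantile normalization. The shares of all genes given above are those as deposited, so whether this shift is particular to iron genes was not tested. Without single rats, the number of genes called higher was 7 without CL5, 9 without CL6, 6 without CL7, 16 without FL2, 6 without FL5 and 10 without FL12. Genes called lower numbered 2 without CL5, 2 without CL6, 1 without CL7, 4 without FL2, 1 without FL5 and 1 without FL12. Of the 19 calls, 5 were kept at an adjusted p under 0.05 in every alternative fit in which the gene was tested. They were those of Id1, Id2, Slc39a8, Scara5 and App. Of these, Slc39a8 missed the limit of at least 2-fold as deposited (-0.83) but met it with median scaling (-1.05) and quantile normalization (-1.04). Id2 missed that limit with both scalings (0.97 in each), and Scara5 missed it with a pseudocount of 1 (0.88).

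**Figure D2:**
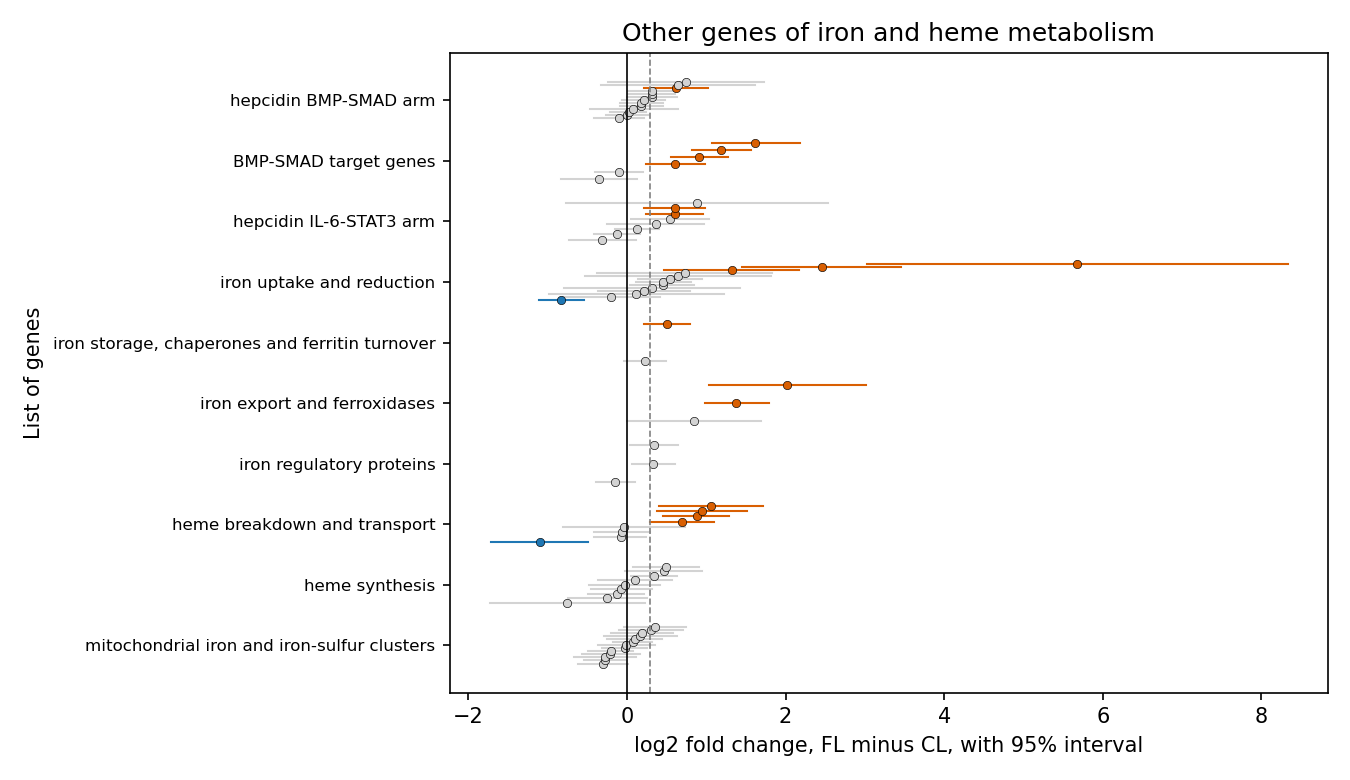
Log2 fold change of each of the 78 further iron and heme genes tested, FL minus CL on the log2(FPKM + 0.1) scale, with 95% intervals, 1 line for each list. Orange points rose and blue points fell at an adjusted p under 0.05, grey points did not pass, and the dashed line marks the median of all genes at 0.29. Genes that rose are seen in 7 of the 10 lists, and none in iron regulatory proteins, heme synthesis or mitochondrial iron, where all points are grey.

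Of the 6 target genes of BMP-SMAD signalling listed, Id1, Id2, Id3 and Smad7 rose, while Smad6 and Atoh8 did not pass. The 4 genes that rose are 66.7% of the list, against 16.9% of all genes, and the list median was 0.76, or 0.47 relative to all genes. Id1, an inhibitor of basic helix-loop-helix factors that is commonly read as a BMP response gene in liver, was at 0.67, 0.79 and 0.84 FPKM in the CL rats and at 2.60 (FL2), 1.89 (FL5) and 3.39 FPKM (FL12). All FL rats lay well above all CL rats. Its log2 fold change was 1.62 (SE 0.24, 95% interval 1.07 to 2.18, adjusted p = 0.00593 by limma), and 1.02 with a pseudocount of 1. Id2, of the same family, was at 8.14, 5.90 and 7.12 FPKM in the CL rats and at 19.0, 14.2 and 15.4 FPKM in the FL rats, again without overlap, with a log2 fold change of 1.19 (SE 0.16, adjusted p = 0.0049 by limma).

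Id3 was at 6.17, 6.28 and 5.09 FPKM in the CL rats and at 13.2, 10.7 and 9.56 FPKM in the FL rats, a log2 fold change of 0.91 (SE 0.16, adjusted p = 0.00936 by limma). It passed 13 of 14 alternatives, quantile normalization being the exception, with adjusted p between 0.0072 and 0.0528. Smad7, the inhibitory SMAD, was at 2.61, 2.34 and 2.40 FPKM in the CL rats and at 3.22, 3.78 and 4.42 FPKM in the FL rats (0.61, SE 0.16, adjusted p = 0.037 by limma). Smad7 passed only 5 of 14 alternatives, and neither of the scalings nor the fits without CL5, CL6, CL7, FL5 or FL12 were among them. The other inhibitory SMAD gene, Smad6, was at 1.85, 1.28 and 1.95 FPKM in the CL rats and at 1.36, 1.28 and 1.21 FPKM in the FL rats, with a log2 fold change of -0.35 (adjusted p = 0.257 by limma). Atoh8, a transcription factor tied to hepcidin control, was at 11.5, 12.4 and 14.2 FPKM in the CL rats and at 12.4, 12.4 and 10.6 FPKM in the FL rats (-0.10, adjusted p = 0.608 by limma). The Id genes and Smad7 also respond to TGF-beta in other cells of the liver, and they rose in the same rats in which markers of stellate cells and macrophages rose. The part of these cells was not tested.

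Ligands, receptors and transducers of the same route had a median log2 fold change of 0.21, or -0.08 relative to all genes. Of 13 genes tested in the BMP-SMAD arm 1 rose (7.69%, against 16.9%), the type I receptor gene Bmpr1a, at 2.95, 2.55 and 3.27 FPKM in the CL rats and at 3.71, 5.15 and 4.86 FPKM in the FL rats (0.62, SE 0.17, adjusted p = 0.0431 by limma). Bmpr1a passed 5 of 14 alternatives, with neither scaling among them. Hfe2, the rat symbol of the hemojuvelin gene, was at 30.3, 15.9 and 16.7 FPKM in the CL rats and at 23.3, 22.0 and 18.7 FPKM in the FL rats. The highest value of Hfe2 was thus that of a control rat, and all FL rats lay inside the CL range. Smad4, the common partner of the SMAD proteins, lay between 13.6 and 13.9 FPKM in all 6 rats (0.02, 95% interval -0.21 to 0.24). Fkbp1a, whose product binds type I BMP receptors, lay between 25.8 and 30.3 FPKM in the CL rats and between 29.1 and 33.5 FPKM in the FL rats (0.18, adjusted p = 0.312 by limma).

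In the IL-6-STAT3 arm 2 of 8 genes tested rose (25.0%, against 16.9%), the kinase genes Jak2 and Tyk2. Jak2 was at 2.35, 2.70 and 2.45 FPKM in the CL rats and at 4.11, 4.41 and 3.15 FPKM in the FL rats (0.61, SE 0.17, adjusted p = 0.042 by limma). Tyk2 was at 5.58, 5.10 and 4.83 FPKM in the CL rats and at 6.43, 8.94 and 8.54 FPKM in the FL rats (0.60, SE 0.16, adjusted p = 0.0338 by limma). Jak2 passed 5 and Tyk2 6 of 14 alternatives, with neither scaling among them, and the call of Jak2 was lost without FL2 (0.56, adjusted p = 0.0714, in a range of 0.0306 to 0.439). Il6st, the shared signalling subunit of the IL-6 receptor, was at 103, 111 and 100.5 FPKM in the CL rats and at 111 (FL2), 77.9 (FL5) and 69.7 FPKM (FL12). FL2 was inside the CL range and the other FL rats below it (-0.31, adjusted p = 0.251 by limma). Without FL2 Il6st was called lower (-0.51, adjusted p = 0.0259, in a range of 0.0259 to 0.545 over 14 alternatives). Jak1 lay between 41.7 and 52.3 FPKM in all rats (0.13, adjusted p = 0.461 by limma). Cebpa, a hepatocyte transcription factor that also acts on Hamp, was at 22.6, 35.8 and 36.1 FPKM in the CL rats and at 55.3, 42.6 and 38.6 FPKM in the FL rats, without overlap (0.54, adjusted p = 0.113 by limma).

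**Figure D3:**
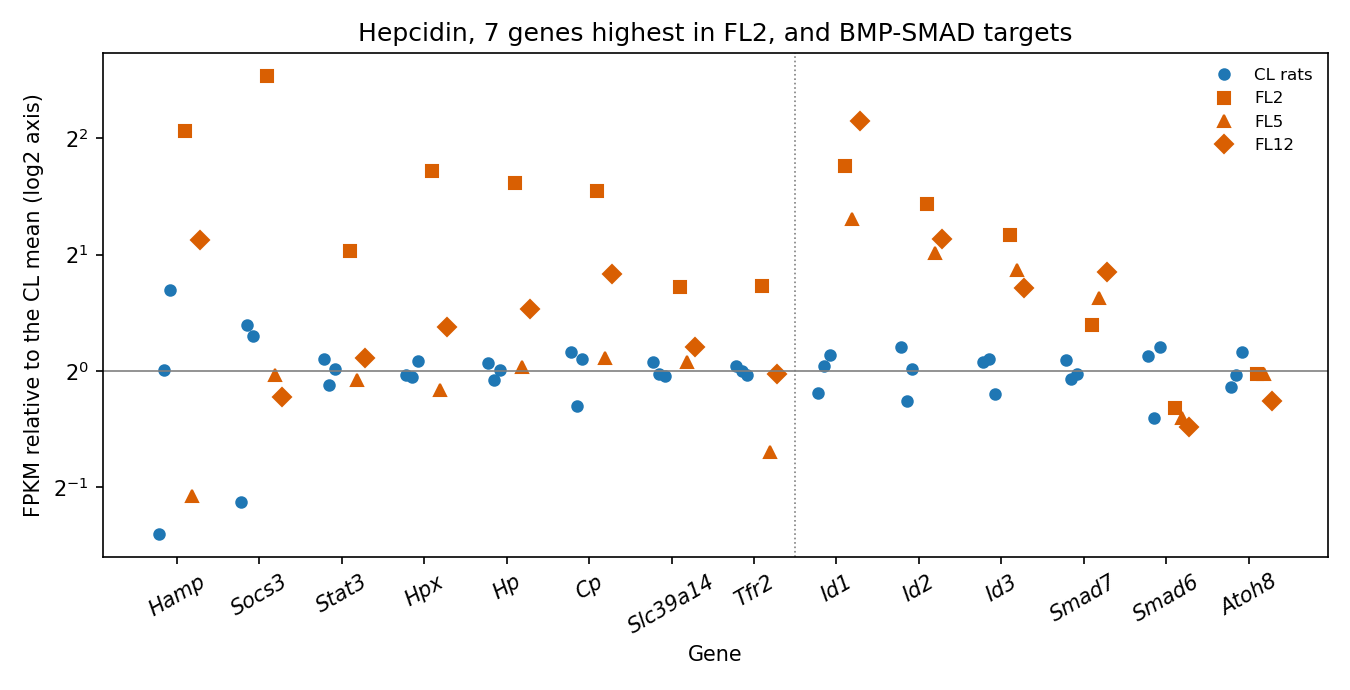
FPKM of each rat divided by the mean of the 3 CL rats, on a log2 axis, for Hamp and 7 genes picked after their values were seen because they too were highest in FL2 (left of the dotted line), and for all 6 listed BMP-SMAD target genes (right). Blue circles are CL rats, and orange squares, triangles and diamonds are FL2, FL5 and FL12; on the right all FL rats lie above all CL rats for Id1, Id2, Id3 and Smad7, whereas the groups overlap for Smad6 and Atoh8.

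The profile of Hamp across single rats can be set beside these genes. Relative to the CL mean, Hamp stood at 4.18 in FL2, 0.474 in FL5 and 2.18 in FL12. Socs3 stood at 5.80, 0.978 and 0.855, Hpx at 3.29, 0.893 and 1.30, and Hp at 3.06, 1.02 and 1.45 in the same rats. Not all genes of the STAT3 arm had their highest value in FL2, since Jak2 and Tyk2 were highest in FL5, Jak1 in FL12 and Il6st in CL6. The targets Id1 at 3.39, 2.47 and 4.42 and Id2 at 2.70, 2.02 and 2.19 were high in FL5 as well, the rat in which Hamp was lowest in the FL group, whereas the targets Smad6 at 0.803, 0.756 and 0.715 and Atoh8 at 0.981, 0.981 and 0.833 were below the CL mean in all FL rats. With 3 rats in each group no relation across rats was tested.

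Likeness to Hamp was measured as the root mean square difference of centred log2(FPKM + 0.1) over the 6 rats, among the 10534 genes whose mean reached 1 FPKM. The 5 most alike were AC118802.1 (0.59), Sebox (0.67), SNORA1 (0.67), SNORD102 (0.68) and Bcl3 (0.68). Of these only Bcl3, a nuclear partner of NF-kappaB, had a mean above 2 FPKM, at 1.77, 3.17 and 5.42 FPKM in the CL rats and at 9.63 (FL2), 4.21 (FL5) and 4.94 FPKM (FL12). Like Hamp, Bcl3 was lowest in CL5 and highest in FL2. Among the iron genes the nearest were Socs3 at rank 11 (0.76), Hpx at rank 16 (0.79), Hp at rank 35 (0.85) and Cp at rank 44 (0.86), followed by Tfr2 at rank 120 (0.96). Id1 came at rank 220 (1.0) and Bmp6 at rank 2727 (1.17). Values near 1 FPKM carry more counting error than higher ones, and such a ranking over 6 rats is a description only.

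The bases before the Hamp start are shown because both inputs to hepcidin are known to act there. RefSeq promoter entries of the rat (assembly GRCr8) were matched for 5 of the 10 members, Hamp, Slc40a1, Tfrc, Tfr2 and Bmp6. The sequence covers 250 bases upstream of the Hamp start, chr1:95300272-95300521 on the minus strand, written in the direction of transcription. Capitals mark GGCGCC, the letters of a BMP-responsive element, and TTCTTGGAA, a match to the STAT letters TTCNNNGAA. The motifs begin 129 and 117 bases upstream of the start and do not overlap. The searched patterns GGCGCC and TTCNNNGAA are each their own reverse complement, so a search of either strand finds the same matches.
Hamp: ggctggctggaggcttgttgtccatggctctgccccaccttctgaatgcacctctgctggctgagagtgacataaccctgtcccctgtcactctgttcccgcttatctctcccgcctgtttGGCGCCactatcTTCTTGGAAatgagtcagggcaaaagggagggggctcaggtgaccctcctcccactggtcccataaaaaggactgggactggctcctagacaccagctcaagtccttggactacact
Among 33469 RefSeq promoter windows of the rat, from 250 bases before to 50 bases after the start, GGCGCC was found in 11% and TTCNNNGAA in 8.87%, and both in 0.547% (183 windows). Of the other 4 matched members, Tfrc held GGCGCC, 118 bases upstream, and none held TTCNNNGAA. The patterns were searched because both inputs are known to act before Hamp, so finding them there is not a separate result. These matches describe letters in a window and not bound sites.

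Genes of iron uptake and reduction included carriers of iron and heme in plasma. Of 13 tested, 3 rose (23.1%, against 16.9%) and 1 fell (7.69%, against 1.94%). Slc39a8, or ZIP8, a close relative of Slc39a14 that transports manganese, zinc and iron, was at 14.3, 14.9 and 14.8 FPKM in the CL rats and at 7.18, 9.16 and 8.45 FPKM in the FL rats. It fell in all FL rats against all CL rats (-0.83, SE 0.12, 95% interval -1.11 to -0.54, adjusted p = 0.00604 by limma) and passed all 14 alternative fits. The change was under 2-fold as deposited, but over 2-fold with median scaling (-1.05) and quantile normalization (-1.04). Slc39a8 and Slc39a14 thus lay on opposite sides of the control values, although only the former passed the test and the difference between them was not tested.

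Lcn2, lipocalin 2, which binds bacterial siderophores and so keeps iron from microbes, had the largest log2 fold change of the listed iron genes. It was at 1.35, 1.35 and 3.75 FPKM in the CL rats and at 490.5 (FL2), 13.1 (FL5) and 168 FPKM (FL12). All FL rats were above all CL rats, though they spanned a wide range with FL2 highest and FL5 lowest, the order seen for Hamp. By the likeness measure given above, however, Lcn2 was the least like Hamp of the iron genes compared, at rank 10499 (2.49). Its log2 fold change was 5.68 (SE 1.15, 95% interval 3.03 to 8.33, adjusted p = 0.0152 by limma), and 11 of 14 alternatives passed, those without CL5, CL6 and FL12 being the exceptions (adjusted p at most 0.0536). Its size rested on single rats, with 4.56 without FL2 and 7.16 without FL5. Scara5, a receptor that takes up ferritin, was at 0.15, 0.09 and 0.06 FPKM in the CL rats and at 0.52, 1.0 and 1.74 FPKM in the FL rats (2.46, SE 0.44, adjusted p = 0.0103 by limma). Steap2, a ferric reductase, was at 0.06, 0.13 and 0.20 FPKM in the CL rats and at 0.39, 0.59 and 0.41 FPKM in the FL rats (1.32, SE 0.37, adjusted p = 0.0429 by limma), and it passed 6 of 13 alternatives. Both genes are low, and the size of their change depended on the pseudocount, with 0.88 for Scara5 and 0.37 for Steap2 at a pseudocount of 1, both under 2-fold.

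Tf, the transferrin gene and one of the most abundant of the liver, was at 5974, 5824 and 5796 FPKM in the CL rats and at 7746, 7144 and 6943 FPKM in the FL rats. The groups did not overlap, yet the log2 fold change of 0.31 (SE 0.48, 95% interval -0.80 to 1.42) did not pass (adjusted p = 0.671 by limma, 0.133 to 0.947 over 14 alternatives). Its size depended on the scaling, with 0.09 after median scaling and 0.78 after quantile normalization. The rats of each group were close to each other, and the lowest adjusted p, 0.133, was that of limma without a trend in the prior variance. Hp and Hpx, the carriers of hemoglobin and heme described above for FL2, had log2 fold changes of 0.73 (adjusted p = 0.309) and 0.64 (adjusted p = 0.394) by limma.

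Export of iron and its oxidation by ferroxidases were covered together by 3 genes tested, of which 2 rose (66.7%, against 16.9%). Of the ferroxidase genes tested, Heph and Cp, only Heph rose. App, the amyloid precursor protein, reported to stabilise ferroportin at the cell surface, was at 23.9, 26.7 and 25.6 FPKM in the CL rats and at 51.0, 69.7 and 82.1 FPKM in the FL rats. Every FL rat was far above every CL rat (1.38, SE 0.18, 95% interval 0.98 to 1.79, adjusted p = 0.00425 by limma), and App passed all 14 alternative fits. Heph, hephaestin, the membrane ferroxidase best known from the gut, was at 0.23, 0.27 and 0.14 FPKM in the CL rats and at 0.55, 1.76 and 1.52 FPKM in the FL rats (2.02, SE 0.43, adjusted p = 0.0182 by limma). It passed 8 of 13 alternatives, and its log2 fold change was 0.87 with a pseudocount of 1. Cp, ceruloplasmin, the plasma ferroxidase made by hepatocytes, was at 654, 474 and 628 FPKM in the CL rats and at 1708 (FL2), 632 (FL5) and 1044 FPKM (FL12). FL5 lay inside the CL range of Cp and the other FL rats above it (0.84, adjusted p = 0.142 by limma), which became 0.49 without FL2 (adjusted p = 0.217, with 0.0584 to 0.355 over 14 alternatives). App, Heph and Scara5 are also expressed outside hepatocytes, and their rise went with that of the stellate and macrophage markers given above, whose part in it was not tested.

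Ncoa4, the cargo receptor that delivers ferritin to lysosomes for iron release, was at 19.7, 17.0 and 17.7 FPKM in the CL rats and at 24.8, 29.2 and 23.8 FPKM in the FL rats. It rose in all FL rats (0.51, SE 0.12, adjusted p = 0.0279 by limma), with 8 of 14 alternatives passing and neither scaling among them. Pcbp2, an iron chaperone that loads ferritin, was at 45.1, 45.0 and 43.5 FPKM in the CL rats and at 47.6, 51.5 and 57.9 FPKM in the FL rats (0.23, adjusted p = 0.196 by limma). Of the 2 genes tested in this short list, from which Pcbp1 and Ftmt had no row, 1 rose (50%, against 16.9%). Both lay without overlap (against 40.5% of all genes tested), higher in the FL group.

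None of the 3 genes of the iron regulatory proteins passed by limma, while 2 of them, Aco1 and Fbxl5, had an unadjusted p under 0.05. Aco1, which encodes the protein that is an aconitase with its iron-sulfur cluster and an RNA-binding regulator without it, was at 29.2, 31.0 and 29.3 FPKM in the CL rats and at 33.2, 40.1 and 39.7 FPKM in the FL rats (0.33, adjusted p = 0.0858). Ireb2, the other regulator, was at 11.5, 10.8 and 10.9 FPKM in the CL rats and at 9.34, 10.3 and 10.4 FPKM in the FL rats (-0.15, adjusted p = 0.353). Fbxl5, which marks the Ireb2 product for degradation when iron is plentiful, was at 5.13, 4.31 and 4.14 FPKM in the CL rats and at 5.59, 5.85 and 5.74 FPKM in the FL rats (0.34, adjusted p = 0.107). All 3 had groups without overlap (against 40.5% of all genes tested), Ireb2 lower and the others higher in FL. Aco1 passed without FL2 (0.42, adjusted p = 0.0296, in a range of 0.0296 to 0.526 over 14 alternatives), and Ireb2 passed with median scaling (-0.37).

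Heme breakdown and transport held 8 genes tested, of which 4 rose (50%, against 16.9%) and 1 fell (12.5%, against 1.94%). Hmox1, the inducible heme oxygenase that frees iron from heme, was at 7.13, 10.5 and 5.86 FPKM in the CL rats and at 19.8 (FL2), 19.2 (FL5) and 10.7 FPKM (FL12). FL12 was only just above CL6, and the other FL rats were clearly higher (1.06, SE 0.28, adjusted p = 0.0384 by limma, 0.0213 to 0.132 over 14 alternatives). Without FL2 the call of Hmox1 was lost (0.91, adjusted p = 0.0818). Blvra, biliverdin reductase A, which turns the product of heme oxygenase into bilirubin, was at 3.77, 5.36 and 2.84 FPKM in the CL rats and at 6.02, 9.01 and 7.81 FPKM in the FL rats (0.94, SE 0.24, adjusted p = 0.0349 by limma). Slc48a1, the lysosomal heme transporter HRG1 of macrophages, was at 6.72, 10.7 and 8.79 FPKM in the CL rats and at 15.8, 17.8 and 14.2 FPKM in the FL rats (0.88, SE 0.18, adjusted p = 0.016 by limma). Flvcr2 was at 1.66, 1.79 and 1.99 FPKM in the CL rats and at 2.49, 3.50 and 3.06 FPKM in the FL rats (0.69, SE 0.18, adjusted p = 0.0328 by limma). Hmox1, Blvra and Flvcr2 each passed 6 of 14 alternatives and Slc48a1 passed 10, and all 4 missed with either scaling. Markers of macrophages rose in the same rats, as given above, and their part in these genes was not tested.

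Slc46a1, a proton-coupled folate transporter that also carries heme, was the gene that fell in this list. It was at 7.05, 15.6 and 9.62 FPKM in the CL rats and at 4.76, 4.23 and 5.18 FPKM in the FL rats. The FL rats were close together below all CL rats, which were themselves spread (-1.10, SE 0.26, 95% interval -1.71 to -0.49, adjusted p = 0.027 by limma). It passed 10 of 14 alternatives, but not without CL7, FL5 or FL12, nor without the trend. The constitutive Hmox2 (-0.06), the second biliverdin reductase gene Blvrb (-0.08) and the exporter gene Abcg2 (-0.04) did not pass, with log2 fold changes near 0 and overlapping groups.

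Synthesis of heme and of iron-sulfur clusters showed 0 calls with all 6 rats and the values as deposited. None of 9 heme synthesis genes passed by limma, with a median log2 fold change of -0.03 (-0.32 relative to all genes). Alas1, the rate-limiting enzyme of heme synthesis in liver, was at 65.0, 97.1 and 86.3 FPKM in the CL rats and at 53.4, 86.6 and 70.3 FPKM in the FL rats, which overlapped (-0.25, adjusted p = 0.436 by limma, or -0.07 without FL2). Alas2, the erythroid form of that enzyme, named after its values were seen, was called lower without FL2 (-1.22, adjusted p = 0.032, in a range of 0.032 to 0.56 over 14 alternatives). The erythroid markers Hbb and Hba1 were called lower in the same fit, as given above, and their part in it was not tested. Alad (-0.07) and Cpox (-0.03) also overlapped. Of 13 genes of mitochondrial iron and iron-sulfur clusters 0 passed, with a median of -0.01 (-0.30 relative to all genes), and Glrx5 had an unadjusted p under 0.05. Iscu, the scaffold protein of cluster assembly, was at 33.4, 31.6 and 28.0 FPKM in the CL rats and at 27.1, 29.5 and 24.3 FPKM in the FL rats (-0.20, adjusted p = 0.278). Isca1 (0.07) and Fdx1 (-0.21) overlapped as well.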

How the data were processed

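Reads of ribosome-depleted liver RNA had been trimmed with FASTX-Toolkit and aligned with TopHat2 by the authors, who deposited FPKM per gene from uniquely mapped reads. The genome is named GRCH38 in the methods, whereas the identifiers are rat Ensembl ones, and the annotation release is not given in the sources used here. In the same table, 2 columns of values were not used because no sample carries their names. Reads were not counted here, so depth per rat is unknown and no counting interval is given.

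FL and CL (n = 3 each) were compared by limma (trended prior) on log2(FPKM + 0.1) where the mean over all rats reached 0.1 FPKM, with Benjamini-Hochberg adjustment over 14864 genes. An exact permutation test of 3 against 3 cannot go below p = 0.1 (two-sided), so none was used. Named genes were the 10 members, each listed iron gene that passed, up to 3 others with the highest mean FPKM per list, other ferritin rows and the 5 genes most like Hamp; exceptions are stated. Some listed genes are counted but not reported by name here. The members and lists were chosen with earlier results of these data known.

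Other settings were pseudocounts of 1 and 0.01, no filter or a filter at a mean of 1 FPKM, median scaling, quantile normalization, no trend, a robust prior, leaving out each rat (14 alternative fits in all, the alternatives counted for single genes), and a limit of at least 2-fold. The procedure was tested on simulated data. No pair of libraries was a duplicate, since 0.136% to 0.658% of genes above 1 FPKM had identical values. R 4.3.3, limma 3.58.1, Python 3.11.15, pandas 2.3.3, numpy 2.4.6 and matplotlib 3.10.9 were used.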

Additional observations from a re-analysis of the deposited data

How the results depend on the processing

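The count of members called higher was 0 under all 15 alternatives, and that of members called lower was 0 except with median scaling, where it was 1 (Tmprss6). Of the other iron genes, 17 were called higher as deposited, against 11 without the filter, 7 with median scaling, 5 with quantile normalization, 10 without the trend and 8 with a fold change of at least 2, and 6 to 16 when single rats were left out. Genes called lower numbered 2, against 5 with median scaling, 4 with quantile normalization, 1 without the trend, 1 with a fold change of at least 2, and 1 to 4 when single rats were left out. Of the 19 calls, 9 were shared with median scaling, 7 with quantile normalization and 17 with the fit without FL2. Log2 fold changes turned their sign in 5 members. With median scaling they were -0.16 for Hfe, -0.22 for Tfr2, -0.22 for Tfrc and -0.01 for Fth1, and with quantile normalization -0.16 for Bmp6, -0.22 for Hfe, -0.08 for Tfr2 and -0.21 for Tfrc. When single rats were left out they ranged from -0.04 to 0.14 for Hfe, from -0.36 to 0.35 for Tfr2 and from -0.16 to 0.27 for Tfrc. A fit without a rat loses that rat's values and also holds fewer rats, and the added fold limit can only lower a count. The cause of these changes was not tested. Hamp, Slc39a14, Ftl1 and Tmprss6 kept their direction under all alternatives. No paired analysis was possible because the groups share only 1 rat number, which does not link the animals. Depth was not known for each rat, so no counting error was attached to low values.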
